A study of Danio rerio with 20 samples.

Results

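The 5 myosin light chain genes mylz3, myl1, mylpfa, mylpfb and myl7 were taken by their symbols from a table of 38718 gene models measured in zebrafish larvae. All 5 symbols were found once each. Expression was measured by RNA sequencing of poly(A) RNA in 20 libraries, in 5 groups of 4: citalopram at 10 µg/L, citalopram at 1000 µg/L, ifosfamide at 1 µg/L, ifosfamide at 100 µg/L, and the group named ERM. Citalopram is a selective serotonin reuptake inhibitor and ifosfamide is an alkylating anticancer drug. The labels do not spell ERM out, its treatment entry carries a concentration of 1 µg/L with no compound, and it was used as the reference. Each treatment had 5 beakers, of which 4 were sequenced, and strain, age and length of exposure are not given in the sources used here. Libraries are named A to D in the drug groups and A, B, C and E in ERM.

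Muscle myosin is built from heavy chains, which carry the motor domain, and pairs of light chains, which wrap around the neck between the motor and the tail. Each heavy chain neck binds an essential light chain, also called an alkali light chain, and a regulatory light chain, which can be phosphorylated by myosin light chain kinase. The genes mylz3 and myl1 code for essential light chains of fast skeletal muscle. The genes mylpfa and mylpfb code for fast regulatory light chains, and myl7 codes for the regulatory light chain of the heart, whose promoter is widely used to label the zebrafish heart.

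Recovered reads per library ranged from 10699832 to 17311011. One library stood apart, library C of citalopram 1000 µg/L. It detected 25952 gene models above 0 where the other 19 detected 28913 to 30110, and its FPKM values summed to 987793, against 389429 to 646074. FPKM is fragments per length of gene and per depth of library, here as the authors scaled it. The slope of log2(FPKM + 1) on log2 gene length, relative to the mean over libraries and over the 2548 gene models whose mean reached 20 FPKM, was -0.30 in that library and -0.17 to 0.15 in the others. Citalopram 1000 µg/L results are therefore given with and without library C.

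All 5 genes lie on different chromosomes of GRCz11. The gene mylz3 (ENSDARG00000017441) lies on the plus strand of chromosome 1 from 7538909 to 7554463. The gene myl1 (ENSDARG00000014196) lies on the minus strand of chromosome 9 from 38994232 to 39005317. The gene mylpfa (ENSDARG00000053254) lies on the minus strand of chromosome 3 from 32813048 to 32818607, and mylpfb (ENSDARG00000002589) on the plus strand of chromosome 12 from 15002757 to 15010996. The gene myl7 (ENSDARG00000019096) lies on the minus strand of chromosome 8 from 40457107 to 40464935. Their lengths in the table ran from 839 to 1529 bases, shorter than the median of 2377 bases over the gene models tested.

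By mean FPKM over the 20 libraries, mylz3 (2946 FPKM) ranked 17 among all gene models, mylpfb (623 FPKM) ranked 134, myl1 (357 FPKM) ranked 195 and myl7 (12.5 FPKM) ranked 4059. The gene mylpfa averaged 0.291 FPKM and ranked 26121. Since FPKM is per length, these levels can be set beside each other, within the limits of each library's trend on gene length. For mylpfa the division of reads with a similar gene model, described below, was not tested. The level of mylpfb exceeded that of myl1 in 20 of 20 libraries, by 1.27 to 2.65 times, and that of myl1 exceeded that of myl7 in 20 of 20, by 17.3 to 41.7 times.

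Of the essential light chains, mylz3 was at 2671, 2808, 4195 and 3734 FPKM in citalopram 10 µg/L libraries A to D. At citalopram 1000 µg/L it was at 2718, 3268, 7821 and 1746 FPKM, so that library C held the highest and library D nearly the lowest value of the study. It was at 2161, 1523, 2201 and 2417 FPKM at ifosfamide 1 µg/L, at 1885, 3009, 2148 and 2283 FPKM at ifosfamide 100 µg/L, and at 3414, 2513, 2890 and 3512 FPKM in ERM. All 4 ifosfamide 1 µg/L libraries lay below all 4 ERM libraries, as they did for 4.8% of all gene models. The other 3 drug groups overlapped ERM. As a share of summed FPKM, ifosfamide 1 µg/L overlapped ERM as well.

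The gene myl1 was at 355, 355, 492 and 393 FPKM at citalopram 10 µg/L and at 339, 334, 774 and 225 FPKM at citalopram 1000 µg/L. It was at 236, 198, 282 and 285 FPKM at ifosfamide 1 µg/L, at 241, 336, 337 and 343 FPKM at ifosfamide 100 µg/L, and at 448, 316, 358 and 502 FPKM in ERM. As for mylz3, every ifosfamide 1 µg/L library lay below every ERM library in FPKM, and the groups overlapped as a share of summed FPKM. Without library C, all citalopram 1000 µg/L libraries also lay below all citalopram 10 µg/L libraries, as they did for 2.29% of all gene models.

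The fast regulatory light chain gene mylpfb was at 636, 567, 890 and 673 FPKM at citalopram 10 µg/L and at 560, 451, 1192 and 398 FPKM at citalopram 1000 µg/L. It was at 626, 396, 608 and 471 FPKM at ifosfamide 1 µg/L, at 516, 681, 569 and 436 FPKM at ifosfamide 100 µg/L, and at 642, 697, 621 and 832 FPKM in ERM. At citalopram 1000 µg/L 3 libraries were below the lowest ERM library while library C was above the highest. As a share of summed FPKM, library C was at 0.121%, within the ERM range of 0.119 to 0.155%. In each ifosfamide group 3 of 4 libraries were below the lowest ERM library.

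The cardiac gene myl7 was at 10.2, 9.55, 18.2 and 11.5 FPKM at citalopram 10 µg/L and at 15.6, 9.13, 18.5 and 11.0 FPKM at citalopram 1000 µg/L. It was at 13.6, 8.76, 10.7 and 11.2 FPKM at ifosfamide 1 µg/L, at 10.8, 13.2, 9.83 and 9.58 FPKM at ifosfamide 100 µg/L, and at 15.4, 15.2, 13.0 and 15.3 FPKM in ERM. Citalopram 10 µg/L library C, at 18.2 FPKM, stood above every ERM library while the other 3 libraries of its group stood below all of them. As a share of summed FPKM, that library C was at 0.00282%, within the ERM range of 0.00263 to 0.00329%. The other 3 stayed below that range. In bulk RNA from whole larvae, fewer muscle or heart cells and less RNA per cell cannot be told apart.

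**Figure D1:**
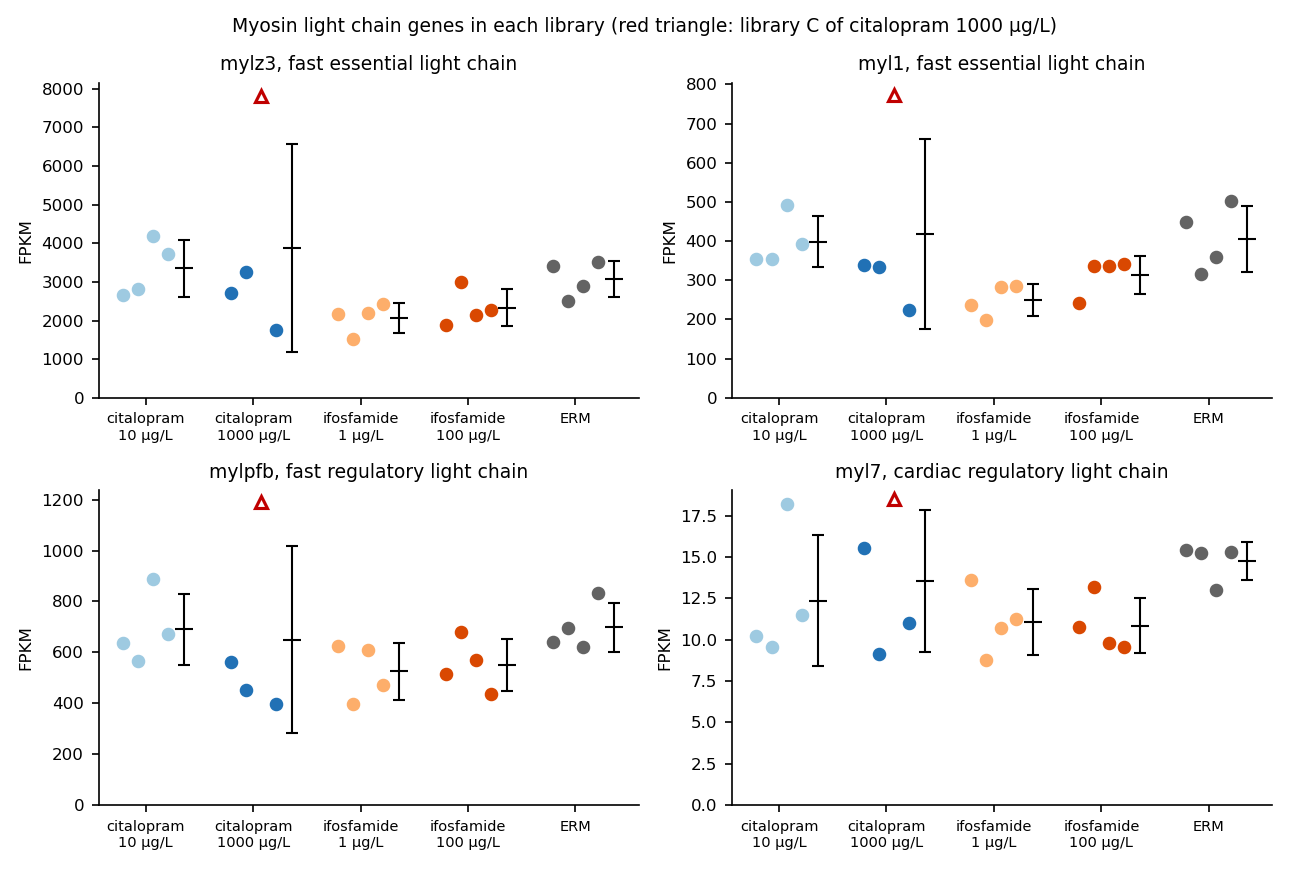
FPKM of mylz3, myl1, mylpfb and myl7 in each of the 20 libraries by group, with the mean and SD of the 4 libraries as bars beside the points. Library C of citalopram 1000 µg/L (red triangle) is the highest library of the study in FPKM for all 4 genes. All 4 ifosfamide 1 µg/L points lie below the ERM points for mylz3 and myl1, an order that held for 4.8% of all gene models. As shares of summed FPKM these groups overlap. As a share of its library's summed FPKM, library C is highest only for mylz3 (0.792%). For myl7 its share, 0.00188%, is the lowest of the 20 libraries.

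The gene mylpfa was nearly absent from the table. It was at 0, 0, 0.0530 and 0.359 FPKM at citalopram 10 µg/L, at 0, 0.311, 3.60 and 0.469 FPKM at citalopram 1000 µg/L, and at 0, 0.0421, 0 and 0.105 FPKM at ifosfamide 1 µg/L. It was at 0.158, 0.0543, 0 and 0.0476 FPKM at ifosfamide 100 µg/L and at 0.116, 0.304, 0.0467 and 0.159 FPKM in ERM. These values stand for 48 reads in citalopram 1000 µg/L library C and for at most 10 reads in any other library. In the 6 libraries at 0, a count of 0 allows up to 3 reads, or 0.116 to 0.168 FPKM, by counting error alone. The gene fell under the filter of a mean FPKM of 1 and was not tested.

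A gene model on an alternate contig carried the high counts for this kind of product. This model lies on the contig CHR_ALT_CTG3_2_3 from 32727336 to 32817244 on the minus strand, and has no symbol and no Ensembl identifier. The deposited table describes it as similar to the skeletal muscle regulatory light chain 2 of chicken. It averaged 1480 FPKM and ranked 57, between mylz3 and mylpfb in 20 of 20 libraries. It was at 1336, 1615, 1758 and 2250 FPKM at citalopram 10 µg/L, at 1640, 991, 2896 and 1246 FPKM at citalopram 1000 µg/L, and at 1452, 678, 1073 and 1727 FPKM at ifosfamide 1 µg/L. It was at 871, 1395, 1359 and 1344 FPKM at ifosfamide 100 µg/L and at 1635, 1286, 1069 and 1981 FPKM in ERM, and all 4 drug groups overlapped ERM.

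Low counts extended over the neighbourhood of mylpfa on the primary chromosome 3. It lay in a run of 10 consecutive gene models with a mean FPKM under 1, from 32714157 to 32873641, in which its own mean of 0.291 was the highest. That mean rested largely on 3.60 FPKM in citalopram 1000 µg/L library C, since no other library exceeded 0.469 FPKM. The next highest mean in the run was 0.131 FPKM, for setd1a, and the order without library C was not examined. Of its 10 nearest gene models 1 reached a mean FPKM of 1, which was fus at 1.14 FPKM, and 6 were under 0.05. Among the 10 nearest gene models of the other members, 4 reached a mean FPKM of 1 around mylz3, 4 around myl1, 6 around mylpfb and 8 around myl7. Over chromosome 3 as a whole, 48.7% of 1742 gene models were under 1.

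The same alternate contig held 13 gene models, and the descriptions of some carry names like those of genes next to mylpfa. A model described as similar to CD2BP2 averaged 4.14 FPKM, while cd2bp2 on the primary chromosome averaged 0.00189 FPKM. A model described as similar to PRR14L, a different name from PRR14, averaged 2.63 FPKM, while prr14 was listed at 0 in every library. Whether that model matches prr14 was not tested. Another contig held a further model described as a regulatory light chain, at 23.9 FPKM. Alternate contigs held 4039 gene models in all and 3.43 to 4.24% of the reads per library. How reads were divided between mylpfa and the contig model was not tested, and the counting settings are not given in the sources used here. Whether the contig model codes for the same product as mylpfa was not checked by sequence.

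**Figure D2:**
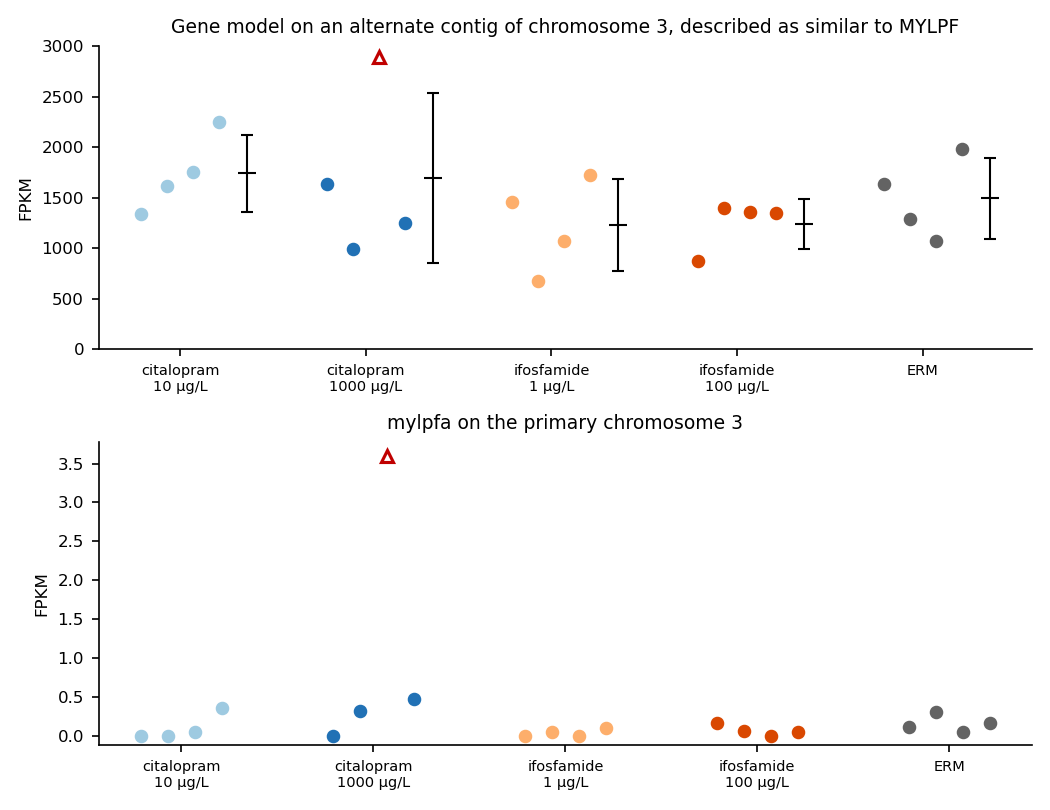
FPKM in each library of the alternate-contig gene model described as similar to MYLPF (upper panel, with mean and SD of 4 libraries) and of mylpfa on the primary chromosome 3 (lower panel), on separate linear axes. The upper values run from 678 to 2896 FPKM and the lower values from 0 to 3.60 FPKM, with library C of citalopram 1000 µg/L (red triangle) highest in both. As a share of summed FPKM, library C was at 0.293% for the upper model, within the ERM range of 0.215 to 0.369%.

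Differences between groups were tested with limma on log2(FPKM + 1) over 19723 gene models, 4 of them members, with Benjamini-Hochberg adjustment and a threshold of 0.05. At citalopram 10 µg/L the log2 changes of the tested members against ERM ran from -0.28 to 0.11, with wide intervals. The gene mylz3 averaged 3352 ± 734 FPKM at citalopram 10 µg/L and 3083 ± 468 FPKM in ERM (SD, n = 4 each), a log2 change of 0.11 (95% interval -0.61 to 0.83). The log2 change was -0.02 for both myl1 (-0.60 to 0.57) and mylpfb (-0.61 to 0.56), and -0.28 for myl7 (-0.71 to 0.15). None of the 4 tested members passed, at an adjusted p of 1.00 in limma, and 0 had an unadjusted p under 0.05. Over all gene models 0.0101% passed in this comparison.

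At citalopram 1000 µg/L library C decided the direction of mylz3. It averaged 3888 ± 2696 FPKM at citalopram 1000 µg/L with library C (n = 4), 2577 ± 771 FPKM without it (n = 3), and 3083 ± 468 FPKM in ERM. The log2 change was 0.12 (SE 0.35) with library C and -0.29 (SE 0.26) without it. The gene myl1 averaged 418 ± 243 FPKM with library C and 299 ± 64.5 FPKM without it, against 406 ± 84.5 FPKM in ERM. Its log2 change was -0.09 with library C and -0.44 without it.

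The regulatory gene mylpfb averaged 650 ± 367 FPKM at citalopram 1000 µg/L with library C, 470 ± 83.0 FPKM without it, and 698 ± 95.1 FPKM in ERM. Its log2 change was -0.24 (SE 0.28) with library C and -0.58 (SE 0.21) without it. For myl7 the log2 change was -0.16 with library C and -0.32 without it, at 13.6 ± 4.28 and 11.9 ± 3.31 FPKM at citalopram 1000 µg/L, against 14.7 ± 1.14 FPKM in ERM. None of the 4 tested members passed in limma, with adjusted p from 0.963 to 0.993 with library C and from 0.442 to 0.777 without it. With library C 0 had an unadjusted p under 0.05, and without it mylpfb and myl1 did. Among all 19723 gene models, 1434 did with library C and 1708 without it. Over all gene models 0.0304% passed with library C. Without it, mylpfb was 1 of 4 tested members whose citalopram 1000 µg/L libraries all lay below all ERM libraries, and 4.88% of all gene models did so.

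At ifosfamide 1 µg/L all 4 tested members had lower means than in ERM, and none passed the test. The gene myl1 averaged 250.2 ± 41.4 FPKM at ifosfamide 1 µg/L and 406 ± 84.5 FPKM in ERM, a log2 change of -0.69 (95% interval -1.27 to -0.10). The gene mylz3 averaged 2076 ± 385 FPKM at ifosfamide 1 µg/L and 3083 ± 468 FPKM in ERM, a log2 change of -0.58 (-1.30 to 0.14). The log2 change was -0.42 for mylpfb, at 525 ± 111 FPKM at ifosfamide 1 µg/L and 698 ± 95.1 FPKM in ERM. It was -0.39 for myl7, at 11.1 ± 2.00 FPKM at ifosfamide 1 µg/L and 14.7 ± 1.14 FPKM in ERM.

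The adjusted p was 0.787 for all 4 members at ifosfamide 1 µg/L in limma, and 0% of all gene models passed. An unadjusted limma p under 0.05 was reached by 1 of 4 members and by 946 of all 19723 gene models. For mylz3 and myl1, which are 2 of the 4 tested members, all ifosfamide 1 µg/L libraries lay below all ERM libraries, as they did for 4.8% of all gene models. The summed FPKM of a library, which the scaling lets vary, was 411713 to 464247 at ifosfamide 1 µg/L and 463110 to 539634 in ERM. As a share of that sum, myl1 was at 0.0481 to 0.0689% at ifosfamide 1 µg/L and 0.0682 to 0.0936% in ERM, and the groups overlapped. The share of mylz3 was 0.370 to 0.585% at ifosfamide 1 µg/L and 0.543 to 0.655% in ERM, and overlapped as well. Rescaled to equal sums, myl1 had a log2 change of -0.44 at ifosfamide 1 µg/L while the median of all gene models was 0.19.

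At ifosfamide 100 µg/L the log2 change was -0.41 for mylz3, -0.36 for myl1, -0.35 for mylpfb and -0.42 for myl7. The gene mylz3 averaged 2331 ± 481 FPKM at ifosfamide 100 µg/L and 3083 ± 468 FPKM in ERM, and myl7 averaged 10.8 ± 1.66 FPKM at ifosfamide 100 µg/L and 14.7 ± 1.14 FPKM in ERM. None of the 4 passed, at an adjusted p of 0.920 each in limma, with 0 at an unadjusted p under 0.05, and 0% of all gene models passed. Each member overlapped ERM, and no library of this group exceeded the highest ERM library in any of them.

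Between doses, mylpfb had the largest citalopram difference of the members without library C. It was at a log2 change of -0.21 for citalopram 1000 µg/L over 10 µg/L with library C and -0.55 without it. The change was 0.01 with library C and -0.40 without it for mylz3, -0.08 and -0.42 for myl1, and 0.12 and -0.04 for myl7. None of the 4 members passed in limma, with an adjusted p of 1.00 with library C and 0.961 to 0.990 without it, and 0% of all gene models passed. At an unadjusted p under 0.05 there were 0 members with library C, and mylpfb without it. Among all 19723 gene models there were 723 with library C and 892 without it. Without library C, 2 of the 4 members, myl1 and mylpfb, had all citalopram 1000 µg/L libraries below all citalopram 10 µg/L libraries, as did 2.29% of all gene models.

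For ifosfamide 100 µg/L over 1 µg/L the log2 change was 0.17 for mylz3, 0.33 for myl1, 0.07 for mylpfb and -0.02 for myl7. None passed, at an adjusted p of 1.00 in limma, with 0 of 4 at an unadjusted p under 0.05 and 0% of all gene models past the threshold. The moderated F-test of limma over the 4 drug groups against ERM also passed none of the members, with adjusted p from 0.862 to 0.875 and 0 at an unadjusted p under 0.05, and passed 0% of all gene models. The counts of all gene models at an unadjusted p under 0.05 against ERM were 478 and 1434 for citalopram 10 and 1000 µg/L, and 946 and 644 for ifosfamide 1 and 100 µg/L. The comparisons against ERM share the 4 ERM libraries.

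**Figure D3:**
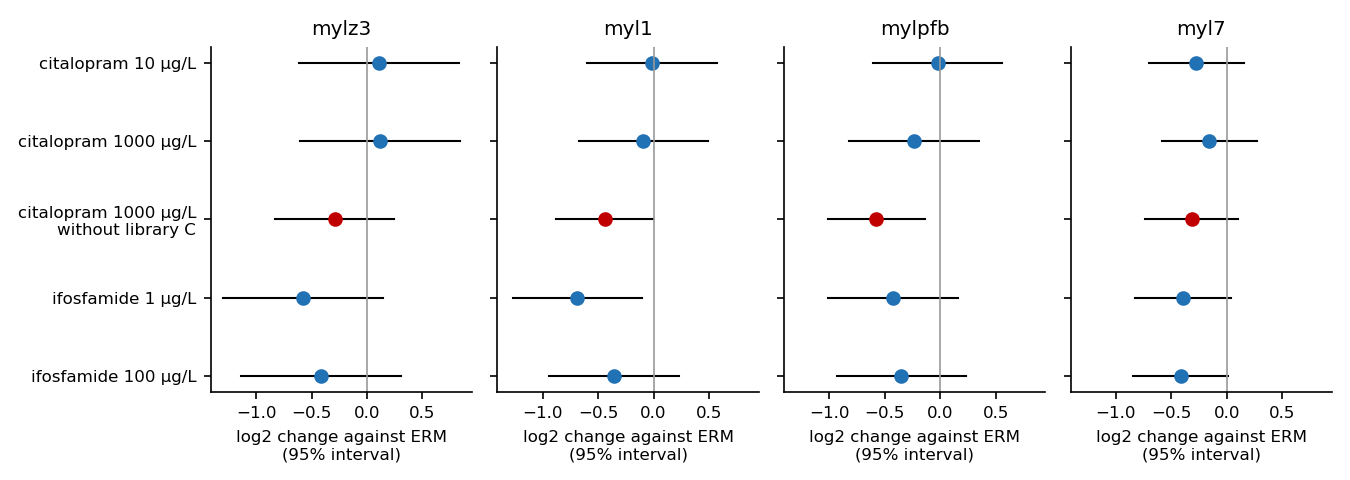
Log2 change against ERM of mylz3, myl1, mylpfb and myl7 in each drug group, with 95% intervals from limma, and for citalopram 1000 µg/L also without library C (red). At ifosfamide 1 µg/L only the myl1 interval lies wholly below 0 (-1.27 to -0.10), and at citalopram 1000 µg/L the mylz3 estimate is 0.12 with library C and -0.29 without it.

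Ratios within a library do not depend on the scaling between libraries. The ratio of mylz3 to myl1, the essential light chains, averaged 8.37 and 8.92 at citalopram 10 and 1000 µg/L, 8.28 and 7.45 at ifosfamide 1 and 100 µg/L, and 7.66 in ERM. The ratio of mylpfb to myl1 averaged 1.73, 1.58, 2.12 and 1.78 in the drug groups in that order, and 1.76 in ERM. The ratio of the alternate-contig regulatory model to mylpfb averaged 2.57, 2.67, 2.37 and 2.30 in the drug groups and 2.12 in ERM. Exact two-sided permutation tests of 4 ratios, the fourth being myl7 to myl1, gave 0 of 16 with an unadjusted p under 0.05, where 0.0286 is the smallest that 4 against 4 libraries allow. The adjusted p ran from 0.629 to 0.971.

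As deposited, summed fast heavy chain FPKM relative to summed fast light chain FPKM was lower in both citalopram groups than in ERM. The summed FPKM of 8 fast heavy chain gene models over that of mylz3, myl1, mylpfa and mylpfb was 1.01, 1.06, 0.935 and 0.929 at citalopram 10 µg/L. It was 0.750, 0.654, 0.273 and 1.05 at citalopram 1000 µg/L. It was 1.32, 1.26, 1.26 and 1.12 at ifosfamide 1 µg/L, 1.26, 1.07, 1.37 and 1.24 at ifosfamide 100 µg/L, and 1.12, 1.204, 1.35 and 1.12 in ERM. Every citalopram library at either dose lay below every ERM library in this ratio, and both ifosfamide groups overlapped ERM. The light chain sum is mostly mylz3, which averaged 3083 FPKM in ERM where the sum averaged 4187 FPKM. Over myl1 or mylpfb alone the order did not hold in every library. At citalopram 10 µg/L library B, the heavy chain sum was 3940 FPKM, myl1 355 FPKM and mylpfb 567 FPKM. These were 5407, 502 and 832 FPKM in ERM library E, and 4244, 316 and 697 FPKM in ERM library B. The ratio was described without a test.

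In FPKM as deposited, the heavy chain sum was low and even at citalopram 1000 µg/L, while the light chain sum varied. Over all gene models, FPKM summed to 551159, 484261, 987793 and 389429 in libraries A to D of that group. The heavy chain sum was therefore not even as a share of summed FPKM. The heavy chain sum was 2628 ± 105 FPKM at citalopram 1000 µg/L and 4983 ± 513 FPKM in ERM (SD, n = 4 each), and library C, at 2675 FPKM, was within its group. The light chain sum was 4957 ± 3300 FPKM at citalopram 1000 µg/L, with library C at 9790 FPKM, and 3346 ± 874 FPKM without library C, against 4187 ± 598 FPKM in ERM. The ratio without library C was 0.816 ± 0.204 at citalopram 1000 µg/L (n = 3) and 1.198 ± 0.109 in ERM. At citalopram 10 µg/L the heavy chain sum was 4324 ± 675 FPKM and the light chain sum 4442 ± 919 FPKM.

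The heavy chain models span 4893 to 6228 bases and the members 839 to 1529 bases, so a library's trend on gene length enters this ratio. How the ratio varied with that trend over the libraries was not tested. After removal of each library's trend on gene length among models whose mean reached 20 FPKM, the ratio was 0.906, 0.658, 0.434 and 0.83 at citalopram 1000 µg/L and 1.17, 1.17, 1.40 and 1.19 in ERM. At citalopram 10 µg/L it was 0.991, 1.01, 1.21 and 0.896, so that library C then lay within the ERM range. It was 1.33, 1.11, 1.16 and 0.885 at ifosfamide 1 µg/L and 1.13, 1.09, 1.25 and 1.13 at ifosfamide 100 µg/L. After this removal most libraries of both ifosfamide groups also lay below every ERM library. Library D of ifosfamide 1 µg/L lay below every citalopram 10 µg/L library. With the trend over all models removed instead, the ratio was 0.903 to 1.07 at citalopram 10 µg/L and 0.344 to 0.931 at citalopram 1000 µg/L. It was 1.02 to 1.32 at ifosfamide 1 µg/L, 1.08 to 1.32 at ifosfamide 100 µg/L and 1.15 to 1.39 in ERM. Every citalopram library then lay below every ERM library, and both ifosfamide groups overlapped ERM. With the alternate-contig regulatory models added to the light chain sum, the mean ratio was 0.702 at citalopram 10 µg/L, 0.482 at citalopram 1000 µg/L and 0.884 in ERM.

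**Figure D4:**
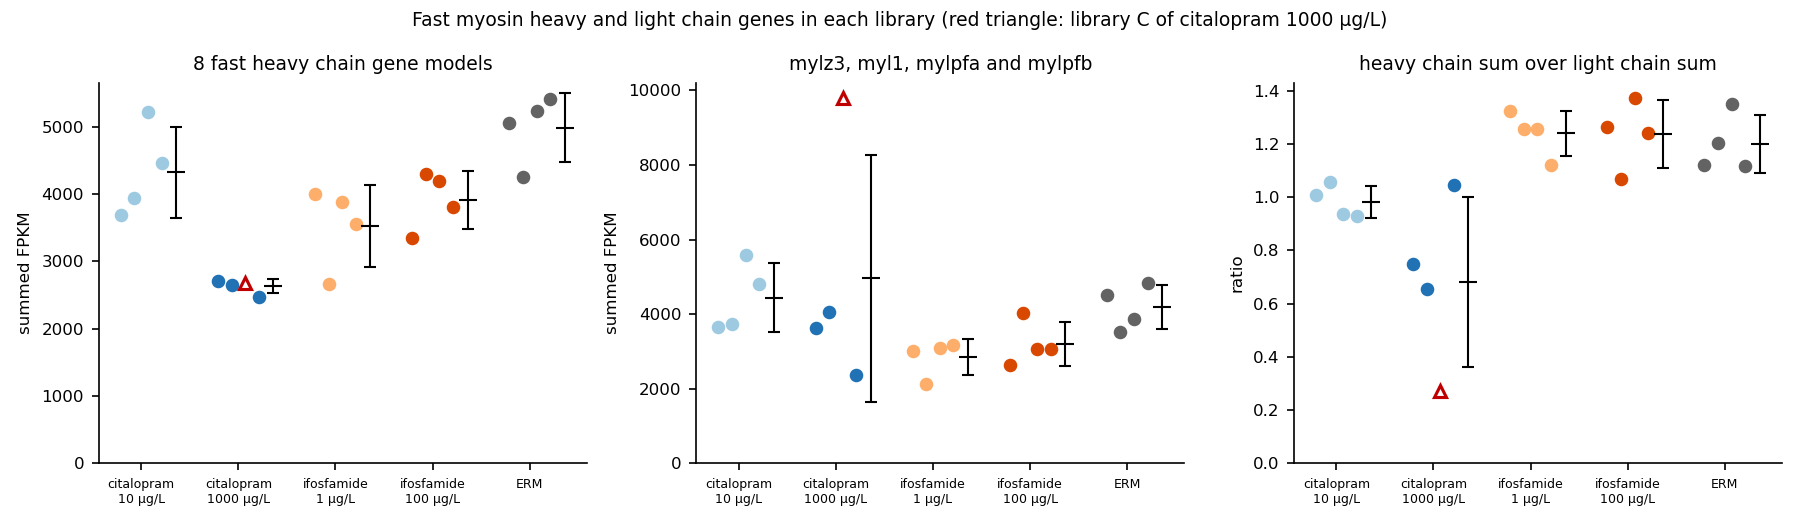
Summed FPKM of 8 fast heavy chain gene models (left), summed FPKM of mylz3, myl1, mylpfa and mylpfb (middle) and their ratio (right) in each library, with the mean and SD of 4 libraries. The ratio lies between 0.273 and 1.06 in the citalopram libraries and between 1.12 and 1.35 in ERM, and library C of citalopram 1000 µg/L (red triangle) is at 9790 FPKM for the light chains and 2675 FPKM for the heavy chains.

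The other genes of the myosin system were taken from lists of known components. Of 9 other light chain genes tested, 0 passed in limma in any of the 4 comparisons against ERM. Their median log2 change was 0.04 at citalopram 10 µg/L, 0.04 at citalopram 1000 µg/L (-0.25 without library C), -0.26 at ifosfamide 1 µg/L and -0.26 at ifosfamide 100 µg/L. The median of the 4 tested members was -0.02, -0.13 (-0.38 without library C), -0.50 and -0.39 in the same order, and that of all gene models was within 0.01 of 0. In both ifosfamide groups 9 of 9 other light chain genes had an estimate below 0. The share of all gene models below 0 was not counted. Over models whose mean reached 5 FPKM, the median was -0.08 at ifosfamide 1 µg/L and -0.07 at ifosfamide 100 µg/L. Rescaled to equal sums, the median of all gene models was 0.19 and 0.15 in the same order. At ifosfamide 1 µg/L the log2 change was -0.64 for myl13, -0.26 for myl6, an essential light chain of smooth muscle and nonmuscle cells, -0.20 for myl4 and -0.12 for myl2b. The cardiac light chain gene cmlc1, noticed after its values were seen, had a log2 change of -0.78 at ifosfamide 1 µg/L. It averaged 15.2 ± 3.39 FPKM at ifosfamide 1 µg/L and 26.3 ± 1.03 FPKM in ERM, and did not pass.

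Of 7 tested genes for kinases and the phosphatase that act on regulatory light chains, 0 passed against ERM. Their medians were -0.02 and -0.08 at citalopram 10 and 1000 µg/L, and -0.04 and -0.08 at ifosfamide 1 and 100 µg/L. The kinase gene mylk4a had a log2 change of -0.78 at citalopram 1000 µg/L, -0.68 without library C, and mylka, a gene for the smooth muscle type of kinase, one of -0.08. At the same dose mylk5 was at -0.01, and ppp1r12a, the targeting subunit of myosin phosphatase, at -0.19.

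The heavy chains showed the only calls among the lists examined. Of 8 fast heavy chain gene models 2 fell at citalopram 1000 µg/L, myhz1.3 by 1.26 and myhz2 by 1.03 on the log2 scale, each at an adjusted limma p of 0.0164. Of 8 slow and cardiac heavy chain models 1 fell, myh7 by 0.85. The median log2 change of the fast heavy chains was -0.83 at citalopram 1000 µg/L, -0.93 without library C, and -0.18 at citalopram 10 µg/L. It was -0.49 and -0.32 at ifosfamide 1 and 100 µg/L. That of the slow and cardiac heavy chains was -0.14 and -0.62 at the 2 citalopram doses and -0.31 and -0.11 at the 2 ifosfamide doses, low to high.

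These 3 heavy chain genes kept a lower estimate under every alternative run, and their calls did not all hold. Over 21 alternatives the log2 change at citalopram 1000 µg/L ran from -1.42 to -1.12 for myhz1.3, from -1.19 to -0.95 for myhz2 and from -0.97 to -0.61 for myh7. In limma 14 alternatives passed myhz1.3, 14 passed myhz2 and 10 passed myh7. None of the 3 passed without ERM library A (adjusted p of 0.0736 to 0.0789), without ERM library E (0.141 each), with only citalopram 1000 µg/L and ERM fitted (0.345 to 0.509) or rescaled to equal sums (0.0736 to 0.0785). Leaving out ERM library C (0.0503) or the citalopram library B at this dose (0.0645) also ended the call of myh7. After removal of the trend on gene length over all models, myhz1.3 at -1.23 and myhz2 at -1.004 passed and were the only 2 gene models that did. After removal of the trend among models whose mean reached 20 FPKM, myhz1.3 at -1.18, myhz2 at -0.95 and myh7 at -0.72 did not pass, and 0 gene models did.

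Myosin chaperones and thin filament genes held no calls. The 6 chaperone and methyltransferase genes had medians of 0.07 and -0.20 at citalopram 10 and 1000 µg/L, and of -0.39 and -0.24 at ifosfamide 1 and 100 µg/L. Among them, hsp90aa1.2 had a log2 change of -0.70, smyd1a of -0.59, hsp90aa1.1 of -0.35 and smyd2b of -0.18 at ifosfamide 1 µg/L. The 14 tested genes of the fast thin filament list had a median of -0.22 at citalopram 1000 µg/L, -0.48 without library C, and -0.46 at ifosfamide 1 µg/L. At ifosfamide 1 µg/L tnnt3a, a fast troponin T gene, was at -0.66, acta1a at -0.49, actn3b at -0.16 and actn3a at -0.10. The listed genes actn3b and actn3a code for alpha-actinins, which anchor thin filaments and are not part of them. At citalopram 1000 µg/L actn3b was at 47.1 to 55.1 FPKM, against 71.8 to 77.8 FPKM in ERM. There actn3a was at 40.8 to 48.4 FPKM, against 56.5 to 79.9 FPKM in ERM. Both genes were named for the smallest p of their list in the F-test. The share of all gene models lying wholly below ERM at this dose was not counted with library C. Without it the share was 4.88%. At citalopram 1000 µg/L 12 of the 14 estimates of this list were below 0, and the smallest adjusted limma p was 0.189.

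In the lists of tissue markers no gene passed in limma at ifosfamide 1 µg/L or citalopram 1000 µg/L. The slow muscle and heart lists share tnni1b, and the slow muscle list holds the slow heavy chain genes smyhc1 and smyhc2. The medians of these lists are therefore not separate observations. The 9 tested slow muscle markers had a median of -0.43 at citalopram 1000 µg/L, with and without library C. With library C, 8 of 9 estimates were below 0. Their median was -0.42 at ifosfamide 1 µg/L, with 7 of 9 estimates below 0. The call of myh7 at citalopram 1000 µg/L stood in the list of slow and cardiac heavy chains, apart from the heart markers. At that dose the heart markers had a median of -0.23, -0.27 without library C, with 8 of 10 estimates below 0. Their smallest adjusted limma p was 0.104 at citalopram 1000 µg/L and 0.787 at ifosfamide 1 µg/L. The 10 tested heart markers had a median log2 change of -0.43 at ifosfamide 1 µg/L, with tnnt2a, the cardiac troponin T gene, at -0.50 and tnnc1a at -0.69, beside -0.39 for myl7. The summed level of all 13 listed heart marker models was 87.4 to 137 FPKM at ifosfamide 1 µg/L and 121 to 183 FPKM in ERM. Much of this sum came from actc1a, whose models averaged 46.4 and 38.5 FPKM at ifosfamide 1 µg/L, where the sum averaged 114 FPKM. The 11 liver markers had 11 of 11 estimates below 0 and summed to 2318 to 3465 FPKM at ifosfamide 1 µg/L and 3440 to 4183 FPKM in ERM. The 12 lens markers had 12 of 12 estimates below 0 at ifosfamide 1 µg/L, with a median of -0.47. At citalopram 1000 µg/L their median was 1.09, 1.01 without library C, with crybb1 at 1.63 and cryba4 at 1.58. The 12 neural markers had a median of 0.02 at ifosfamide 1 µg/L and 0.07 at citalopram 1000 µg/L. The 9 tested epidermis markers had a median of -0.06 at ifosfamide 1 µg/L and 0.03 at citalopram 1000 µg/L, with 5 and 2 estimates below 0. The part of these markers in the light chain values was not tested. Estimates below 0 in these lists were counted without the share over all gene models beside them.

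**Figure D5:**
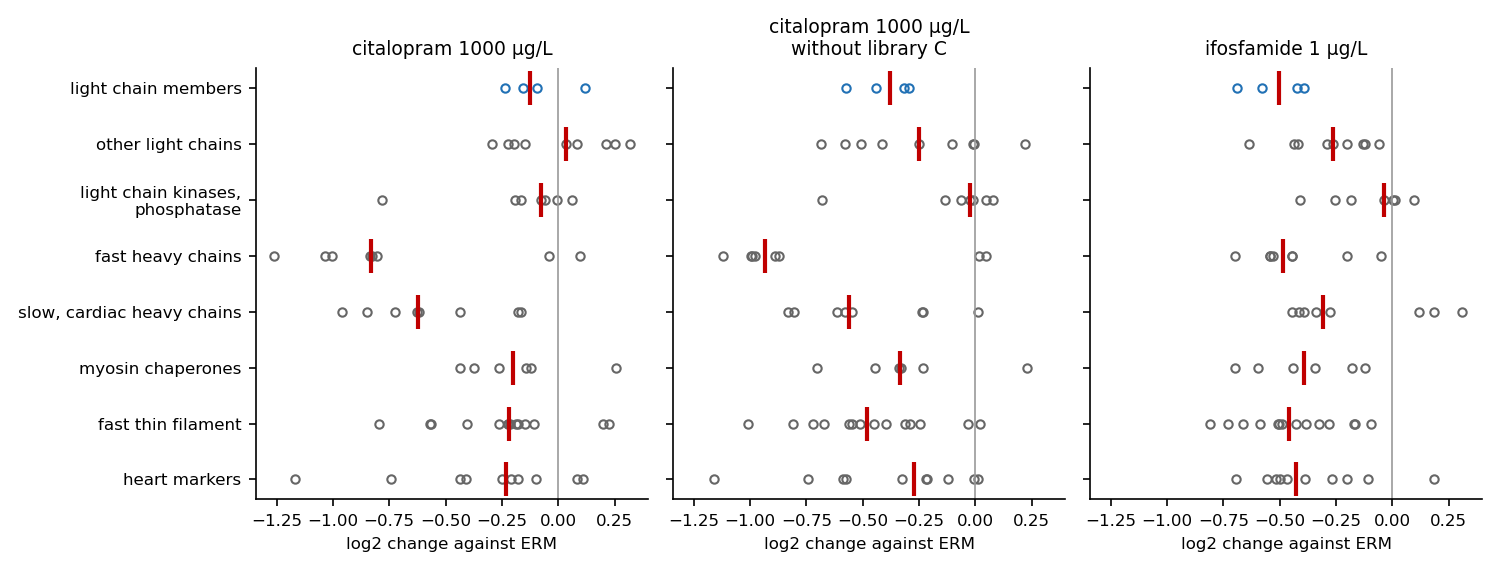
Log2 change against ERM of each tested gene (circles) and the list's median (red bar) at citalopram 1000 µg/L, at citalopram 1000 µg/L without library C and at ifosfamide 1 µg/L. The light chain members (blue) have a median of -0.13 at citalopram 1000 µg/L with library C, -0.38 without it and -0.50 at ifosfamide 1 µg/L, and the fast heavy chains have -0.83, -0.93 and -0.49.

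The fast essential light chain genes followed each other most closely over the libraries. Pearson's r of log2(FPKM + 1) between mylz3 and myl1 was 0.945 over 20 libraries and 0.911 over the 19 libraries without library C of citalopram 1000 µg/L. It was 0.830 and 0.723 between mylz3 and mylpfb, 0.797 and 0.745 between mylpfb and myl7, and 0.658 and 0.554 between mylz3 and myl7. These values describe libraries that share scaling, depth and the trend on gene length.

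Outside the 5 members, the gene models most like each member over the 20 libraries were mostly not myosin genes. For mylz3 they were desma, the muscle intermediate filament gene desmin (r = 0.975, or 0.958 without library C), blmh (0.967), slc25a3b (0.967), psma1 (0.966) and aimp1 (0.963). For myl1, whose closest gene model with a symbol was the member mylz3 (0.945), they were mapkapk3 (0.936), eif4ebp3l (0.933), pgam2, the muscle phosphoglycerate mutase gene (0.932), myca (0.931) and desma (0.927). For mylpfb they were tmod4, a tropomodulin gene of the thin filament (0.938), myl10, another regulatory light chain gene (0.936), utp23 (0.934), the fast troponin I gene tnni2a.4 (0.925) and psma3 (0.921).

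For myl7 the most similar models were isoc2 (0.924), apoa4b.1 (0.896), selenop (0.893), scp2a (0.882) and taz (0.882), and no sarcomere gene was among these 5. For mylpfa they were sumo3a (0.903), tm9sf1 (0.895), tmem50a (0.873), calm1b and mapkapk2a. Without library C the first 3 of them had r of 0.296, 0.329 and -0.01, so the likeness of mylpfa rested on that library.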

How the data were processed

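Poly(A) RNA of larvae was sequenced with strand-specific libraries, per the labels' protocols. Tools named without versions in the submitters' processing notes are fastp, HISAT2, featureCounts and DESeq2, and the build is GRCz11. The authors deposited FPKM per gene model. Each value multiplied by gene length and divided by its library's smallest step gave whole reads, within 0.01 in 100% of values, and these gave the depth. No libraries of a group agreed within counting noise (chi-square per degree of freedom of at least 6.69).

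The 19723 models whose mean FPKM reached 1 were tested on log2(FPKM + 1) in limma 3.58.1 (R 4.3.3), with a trend on intensity, a coefficient for each of the 5 groups, 15 residual degrees of freedom and Benjamini-Hochberg adjustment within each comparison. Fold changes on this scale understate changes of low genes. Each library was taken as 1 beaker, so p-values measure the spread between beakers. Ratios were tested by exact permutation with scipy 1.17.1. Ratios over mylpfa had been planned and could not be computed, since it was listed at 0 in 6 libraries, so myl1 was used instead. The heavy to light chain ratio had no test.

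Named genes of other lists were those past the threshold, or else up to 4 with the smallest p in the F-test; some are given here only through their list's median. For each member, the 5 models with symbols and the highest correlation, other than the members, were named. Members and lists were chosen with earlier results of these data known. The model was tested on simulated data. Alternatives covered the pseudocount, filter, scaling, library weights, only the groups compared, each library left out and a replicate block. The model voom on recovered reads, removal of trends on gene length and the alternate-contig models were added after seeing the data. Python 3.11.15 and matplotlib 3.10.9 drew the figures.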

Additional observations from a re-analysis of the deposited data

Results flagged for a closer look

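A library was set apart where its gap to the nearest other library of its group of 4 was large against the group's range (Dixon's 95% limit), a rule that chance meets in about 1 in 20 groups. Of 55 groups examined, 4 met it. At ifosfamide 100 µg/L, library A was low for myl1, at 241 FPKM against 336 to 343 FPKM in the other 3 libraries. The same library was low for the alternate-contig regulatory light chain model, at 871 FPKM. The ERM library C was low for myl7, at 13.0 FPKM against 15.2 to 15.4 FPKM. Library D of citalopram 10 µg/L was high for mylpfa, at 0.359 FPKM, which stands for 7 reads.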

How the results depend on the processing

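Over 24 log2 changes of the 4 tested members and 504 alternative values of them, 40 changed sign and 3 passed the threshold, all 3 with weights for each library (arrayWeights). With those weights mylz3 and myl1 passed at ifosfamide 1 µg/L (2 members, log2 changes of -0.59 and -0.68, adjusted limma p of 0.0353 and 0.0158), myl7 passed at ifosfamide 100 µg/L (1 member, -0.51, adjusted p of 0.0483), and 1 member passed in the F-test. The weights ran from 0.124 for library C of citalopram 1000 µg/L to 5.18 for library C of ifosfamide 1 µg/L, and 2033 gene models passed at ifosfamide 1 µg/L, 860 at ifosfamide 100 µg/L, 167 at citalopram 1000 µg/L and 2149 in the F-test. The cause was not tested.

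Signs that changed elsewhere belonged to small values. Against ERM, mylz3 at citalopram 1000 µg/L became -0.037 rescaled to equal sums, -0.17 with library weights, and -0.28 without library C after removal of either trend on gene length. Over citalopram 10 µg/L it became -0.10, -0.12, and -0.0029 or -0.0047 with the trends over all models or those of mean FPKM 20 removed (-0.39 for both without library C). There myl7 became -0.026 and -0.024 with the trends removed and without library C. At citalopram 10 µg/L mylz3 became -0.046 with library weights. For ifosfamide 100 over 1 µg/L, mylpfb became -0.20 with library weights.

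Library letters did not pair the groups (correlations of deviations -0.44 to 0.42, 13 of 36 over 0.1). With a replicate block, myl1 became 0.13 and mylpfb 0.15 at citalopram 10 µg/L, myl1 became 0.051 at citalopram 1000 µg/L, and no member passed.

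Leaving out 1 library at a time, no member passed. Against ERM, the range at citalopram 10 µg/L was -0.0087 to 0.21 for mylz3, -0.13 to 0.094 for myl1 and -0.15 to 0.064 for mylpfb. At citalopram 1000 µg/L it was -0.29 to 0.43 for mylz3, -0.44 to 0.15 for myl1 and -0.32 to 0.00073 for myl7. For citalopram 1000 over 10 µg/L it was -0.40 to 0.32 for mylz3, -0.42 to 0.17 for myl1 and -0.040 to 0.31 for myl7, and for ifosfamide 100 over 1 µg/L -0.053 to 0.18 for mylpfb and -0.12 to 0.072 for myl7. The log2 ratio of myl7 to myl1 ranged from -0.24 to 0.10 at citalopram 1000 µg/L, and at ifosfamide 100 µg/L from -0.21 to 0.039. That of mylpfb to myl1 ranged from -0.10 to 0.11 at citalopram 10 µg/L, and at ifosfamide 100 µg/L from -0.088 to 0.16, and that of mylz3 to myl1 from -0.14 to 0.019 at ifosfamide 100 µg/L. That of the alternate-contig model to mylpfb ranged at ifosfamide 1 µg/L from -0.13 to 0.24, and at 100 µg/L from -0.052 to 0.24.

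The log2 heavy to light chain ratio at citalopram 1000 µg/L against ERM was -0.97, and -1.22 to -0.58 with a library left out, lowest in size without library C. With the trend on gene length among models of mean FPKM 20 removed it was -0.15 at ifosfamide 1 µg/L and -0.10 at ifosfamide 100 µg/L, against 0.05 and 0.04 as deposited. Over all gene models, 6 passed at citalopram 1000 µg/L and 0 to 40 with a library left out. There 40 passed without library D of that dose, 2 without library B, 3 without ERM library B, and 0 without ERM library A or ERM library E. The count was also 0 with the replicate block, with only the 2 groups compared and rescaled to equal sums. It was 15 at a filter of mean FPKM 5, and 2 with the trend on gene length over all models removed (4 also without library C) or 0 with that among models of mean FPKM 20; voom on recovered reads passed 5 there, 0 in the other comparisons and none of the members. The low read counts of mylpfa limited its values in every library.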
